A study of Homo sapiens with 4 samples.

Results

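Most of the genes described here build the coats of transport vesicles or sort cargo at endosomes. All were taken from the authors' deposited table of skipped exons by gene symbol. The symbols were VPS, SNX and SEC followed by a digit, the COP coat subunits, and the beta, delta, epsilon, gamma, mu, sigma and zeta subunits of the AP adaptors. They also take in genes of the endoplasmic reticulum translocon and signal peptidase, VPS13 and SEC14-like lipid transfer genes, an antisense transcript and VPS72, which are not coat subunits. Of 740 events in 112 such genes, the 675 events in 106 genes with a mean of at least 20 junction reads over the 4 libraries were kept. They cover 563 exons and stand among 54503 events of the whole table with that depth. The other 65 events had means of at most 19.5 reads, and the shallowest kept event had 20. A junction read spans a splice junction, and an event is an exon with a stated pair of neighbours that is either included or skipped.

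The cells were 293T, the human embryonic kidney line also written HEK293T. In 2 libraries the cells had received a MOE gapmer antisense oligonucleotide (ASO) against SNORD89, a C/D box small nucleolar RNA, at 70 nM with Lipofectamine RNAiMAX. The other 2 libraries are marked as treatment none, yet the transfection protocol in their labels is the same one, and no control ASO is named. In all 4 the medium was changed at 24 h and RNA was taken at 48 h. Poly(A) RNA was sequenced as read pairs of 150 bases, and the libraries of a group are described as biological replicates. Neither the headers nor the labels say which set of the table holds the ASO libraries, so differences are given as first set minus second set. The deposited comparison is named SNORD89 versus no ASO, but that name does not tie either group to a numbered set. Library 1 and library 2 of a set are names for their place in the table and pair nothing.

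COPII coats carry cargo out of the endoplasmic reticulum, COPI coats return it from the Golgi, and AP adaptors link cargo to clathrin or related coats at the Golgi, the plasma membrane and endosomes. At endosomes, retromer and sorting nexins recycle receptors, ESCRT complexes pack ubiquitinated receptors into internal vesicles for degradation, and the GARP, EARP, HOPS and CORVET tethers bring membranes together before fusion. Most of these subunits are needed in every cell. Several of their genes carry alternative exons, among them microexons, which are exons so short that they add only a few amino acids.

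The microexons with intermediate inclusion are shown first because they are the shortest alternative exons of these genes and include 1 of the deepest. Exon bases are in capitals, and up to 15 bases of the neighbouring exons are in lower case. The sequences are from transcripts of GENCODE release 29, and coordinates throughout are hg19 as in the table.
AP2M1, chr3:183898433-183898438, plus strand: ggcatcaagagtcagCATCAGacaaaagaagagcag
AP1B1, chr22:29725701-29725709, minus strand: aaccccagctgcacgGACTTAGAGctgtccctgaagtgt
AP1G1, chr16:71801780-71801788, minus strand: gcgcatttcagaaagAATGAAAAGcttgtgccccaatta
VPS29, chr12:110937340-110937351, minus strand: atgGCTGGGCACAGAttggtgttggtatta
SNX14, chr6:86248556-86248582, minus strand: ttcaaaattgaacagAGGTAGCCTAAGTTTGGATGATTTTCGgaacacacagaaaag
SNX21, chr20:44469087-44469097, plus strand: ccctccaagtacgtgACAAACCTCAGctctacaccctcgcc

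The longer exons printed next, with the same use of capitals, are some of the exons called below that matched a coding exon of the annotation. For VPS53 the downstream neighbour shown is that of the deeper event on the same exon, which was not called.
SNX24, chr5:122226722-122226820, plus strand: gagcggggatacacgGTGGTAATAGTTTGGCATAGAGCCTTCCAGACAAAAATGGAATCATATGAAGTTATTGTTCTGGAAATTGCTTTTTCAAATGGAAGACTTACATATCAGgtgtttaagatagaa
SNX22, chr15:64444442-64444525, plus strand: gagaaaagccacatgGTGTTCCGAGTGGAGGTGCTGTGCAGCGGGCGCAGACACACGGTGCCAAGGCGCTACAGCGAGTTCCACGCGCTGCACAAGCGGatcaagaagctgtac
VPS11, chr11:118949275-118949414, plus strand: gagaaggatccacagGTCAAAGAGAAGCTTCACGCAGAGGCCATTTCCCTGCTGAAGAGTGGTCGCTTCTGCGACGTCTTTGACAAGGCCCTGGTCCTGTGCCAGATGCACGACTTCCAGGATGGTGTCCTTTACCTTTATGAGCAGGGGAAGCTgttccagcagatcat
VPS53, chr17:565049-565135, minus strand: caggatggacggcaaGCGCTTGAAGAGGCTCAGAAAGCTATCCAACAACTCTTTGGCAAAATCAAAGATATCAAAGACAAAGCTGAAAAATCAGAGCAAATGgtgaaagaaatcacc

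Most exons of these genes were included almost always. The inclusion level compares junction reads that include the exon between its stated neighbours with those that skip it, after division by the length of each form. It is a fraction from 0 to 1 within that event, and not a share of all transcripts of the gene. It averaged above 0.95 for 462 of the 675 events (68.4%), against 66.1% of all tested events. Of these 462, 444 differed by less than 0.05 between the sets. An average above 0.95 leaves room only for a difference under 0.1, and the like count over all tested events was not taken. Another 126 events, called alternative here, lay between 0.05 and 0.95 with reads in every library. Their length was a multiple of 3, which keeps the reading frame, in 68 of 126 (54.0%), against 43.2% of all alternative events. Among the 82 alternative events matched to coding exons it was so in 51 (62.2%). Only members were matched to the annotation, so no like share exists for coding exons of other genes. The 43.2% includes non-coding exons and is not its background.

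In the authors' deposited table, 10 of the 675 events had a false discovery rate (FDR) under 0.05 and an absolute difference of at least 0.1, which is the rule for a call here. That is 1.48%, beside 2.71% of all tested events. Inclusion was higher in the first set in 6 of them (background 1.34%) and lower in 4 (background 1.37%). All 10 were alternative events, so 7.94% of the 126 were called, against 11.1% of all alternative events. The 9 called events described below were in VPS28, VPS29, VPS11, VPS53, SEC14L1, SNX16, SNX22 and SNX24. None of the 10 was in an AP, COPI or COPII gene, which had 148, 49 and 116 events, with 27, 7 and 28 of them alternative. Counts by role, here and below, are small and stand beside the same shares of all tested events. Whether roles differ was not tested. An FDR under 0.05 at any difference was given by the authors' deposited table to 28 events (4.15%), against 5.72% of all tested events. Of the 18 that were not called, those named below were picked out after their values had been seen, except in COPB2, VPS8 and VPS9D1-AS1, where the exon was among the deepest alternative ones of its role.

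The call rests on the authors' rMATS test. A quasi-binomial model, whose error is the scatter among libraries of a set, called 0 of the 675 events and 0 of all 54503 at an adjusted p under 0.05. On simulated data this model found few of the known changes, so its count of 0 says little about the authors' calls. The model's unadjusted p was under 0.05 for 37 members (5.48%), against 4.86% of all tested events. Of the 10 called events, 8 were among the 37. Both tests use the same reads, and the like share over all called events of the table was not taken, so this overlap is no second line of evidence. The same model with another dispersion prior, chosen after those counts had been seen, called 0 members and 1 event of the table, and 15 members had an unadjusted p under 0.05. A limma fit to log2 inclusion over skipping reads (pseudocount 0.5) called 0 members, with 30 at an unadjusted p under 0.05, and 0 of all tested events, with 4.87% at that level.

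The libraries of the second set lay farther apart than those of the first. Over the 126 alternative events, the median absolute difference between sets was 0.0525, against 0.0548 over all alternative events. The median gap between the libraries within the first set was 0.0427 and within the second 0.0901, against 0.0493 and 0.0876 over all alternative events. Library 2 of the second set lay by a median of 0.0827 and 0.0759 from the libraries of the first set, while library 1 of the second set lay by 0.0465 and 0.0433 from them. Over all alternative events the same medians were 0.0827 and 0.0844 for library 2, and 0.0575 and 0.0564 for library 1. The sets did not overlap in 43 of the 126 events (34.1%), against 33.5% of all alternative events, and in 7 of the 10 called ones, against 79.1% of all called events. Some events were above 0.9 in 3 libraries and lower only in the fourth. Where the fourth was library 1 of the first set they were 9 members (1.33%, against 1.70% of all tested events), and where it was library 2 of that set 10 (1.48%, against 1.88%). For library 1 of the second set they were 9 (1.33%, against 2.25%) and for library 2 of the second set 21 (3.11%, against 2.81%); this level was chosen after the data had been seen.

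**Figure D1:**
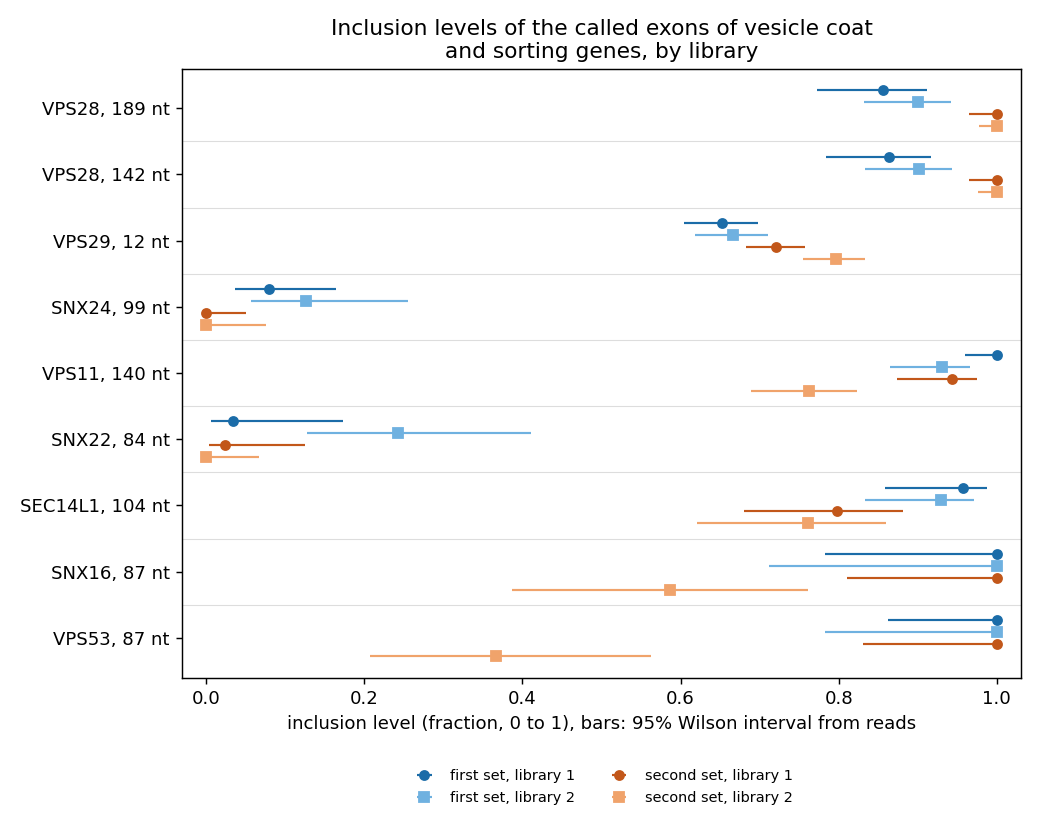
Inclusion level (fraction, horizontal axis) of 9 called exons in each of the 4 libraries, with 95% Wilson intervals from the reads. In VPS53 and SNX16, 3 libraries sit at 1 and library 2 of the second set alone is lower, while in VPS28 both libraries of the second set are at 1 and both of the first below it.

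Retromer retrieves receptors from endosomes, and VPS29 is the subunit of its cargo-recognition core that also binds regulators. The 12-nt coding microexon of VPS29 (ENSG00000111237.14) follows the start codon closely and keeps the frame. Its inclusion level was 0.653 (95% Wilson interval 0.604 to 0.699) and 0.666 (0.618 to 0.711) across the first set, and 0.721 (0.683 to 0.757) and 0.797 (0.755 to 0.833) across the second, from 394, 401, 577 and 419 reads. Both libraries of the second set were higher than both of the first, and VPS29 was the deepest of the called events. The authors' deposited table has -0.1 at FDR 0.0364, a rounded value: recomputed from the reads the difference was -0.0995, just short of the 0.1 of a call. Without library 2 of the second set the difference was -0.0618. A second event on the same 12 nt, with another upstream exon, was near 1 in every library, at 0.971, 1, 1 and 0.895. A 90-nt form that starts at the same splice site was included at 0.158, 0.2, 0.119 and 0.292, with no separation of the sets.

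The other retromer subunits were nearly constitutive where the authors' FDR was under 0.05. VPS26B, an arrestin-like subunit, had a 157-nt coding exon at 0.965 and 0.966 across the first set, and 0.989 and 1 across the second, with a difference of -0.029 (FDR 0.0193 in the authors' deposited table). Its paralog VPS26A had a 69-nt exon at 0.997, 1 and 1, and at 0.947 in library 2 of the second set alone. In all, 3 of the 28 retromer events had an FDR under 0.05 and 1 was called, beside 5.72% and 2.71% of all tested events.

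VPS28 is a subunit of ESCRT-I, which gathers ubiquitinated cargo. Both called events in VPS28 (ENSG00000160948.9), on the minus strand of chromosome 8, are long forms of 1 exon: 189 nt (145651258 to 145651446) and 142 nt (145651305 to 145651446). In GENCODE each is found in a transcript marked for nonsense-mediated decay, and the short 38-nt form with the same 5′ end is the one in coding transcripts. Inclusion of the 189-nt form was 0.856 (0.772 to 0.912) and 0.9 (0.833 to 0.943) across the first set, and 1 (0.965 to 1) and 1 (0.977 to 1) across the second. The 142-nt form had nearly the same levels, at 0.864 and 0.901 against 1 and 1. The sets did not overlap, and the authors' deposited table gives -0.122 (FDR 7.3e-07) and -0.117 (FDR 1.09e-06) as differences.

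The 3 VPS28 events share their skipping reads. The first set had 13 and 11 reads that skipped the exon, the second set had 0 in each library, and the same reads were counted for the 189-nt, the 142-nt and the 38-nt form. For the 38-nt form, with 656, 727, 928 and 1028 reads, inclusion was 0.975, 0.981, 1 and 1, a difference of -0.022 (FDR 0.0856 in the authors' deposited table). The pair of calls is thus 1 measurement of skipping, set against 2 minor inclusion forms. A count of 0 skipping reads allows up to 1.42% and 0.92% of the reads of the 189-nt event in the second set, which covers counting error only, as do all intervals here. Without the correction for form length the differences of the long forms were -0.0651 and -0.0639, and without library 1 of the first set they were -0.0995 and -0.0988.

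VPS37A and VPS37C, other ESCRT-I subunits, had no called exon. The 115-nt exon of VPS37A was at 1 in 3 libraries and at 0.722 in library 2 of the second set, with a difference of 0.139 (FDR 0.0971 in the authors' deposited table) that was 0 without that library. The 99-nt exon of VPS37C was at 0.89, 0.932, 0.963 and 0.877, so its sets overlapped.

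Among the tethers, 2 events were called, and in both the sets overlapped. VPS53 is a subunit shared by GARP and EARP. Its 87-nt coding exon (ENSG00000141252.15) was at 1, 1 and 1 in 3 libraries and at 0.367 (0.207 to 0.562) in library 2 of the second set, from 38, 22, 30 and 23 reads. The VPS53 difference was 0.317 at FDR 0.0205 by the authors' deposited table, and without that library the difference was 0. The same 87 nt in a deeper event, with another neighbouring exon and 161, 128, 114 and 103 reads, was at 0.774, 0.773, 0.783 and 0.841, with a difference of -0.038 (FDR 1 in the authors' deposited table). The 2 events on this exon thus differ in direction.

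VPS11 is a core subunit of both HOPS and CORVET. Its 140-nt coding exon (ENSG00000160695.10) was at 1 (0.959 to 1) and 0.931 (0.865 to 0.966) across the first set, and 0.943 (0.874 to 0.975) and 0.762 (0.689 to 0.823) across the second. VPS11 thus has a difference of 0.113, at FDR 0.00611, by the authors' deposited table, and library 1 of the second set lay between the libraries of the first. Without library 2 of the second set the VPS11 difference was 0.0224, and without the correction for form length it was 0.0659. A 248-nt exon of the same gene showed a like order, at 0.989, 1 and 1 and then 0.81, and VPS41, another HOPS subunit, had a 75-nt exon at 1, 0.991 and 1 and then 0.83. The authors' deposited table gives these an FDR of 0.0202 and 0.00107 with differences of 0.089 and 0.081, under the 0.1 of a call; both were picked out after their values had been seen.

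VPS52 (GARP and EARP) and VPS16 (HOPS and CORVET) carried the deepest alternative exons of the tethers beside these. The 119-nt exon of VPS52 was at 0.883, 0.841, 0.831 and 0.792, a difference of 0.05 (FDR 0.339 in the authors' deposited table). The 132-nt exon of VPS16 was at 0.882, 0.909, 0.812 and 0.9. Neither gene had a called event. VPS54, another GARP subunit, had a 206-nt exon at 0.913, 1, 0.818 and 1. VPS8, a CORVET subunit, had a 55-nt exon at 0.0106, 0.0118, 0.203 and 0, so library 1 of the second set alone was higher.

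Sorting nexins share a PX domain that binds phosphoinositides, and their 25 genes made up the largest group, with 154 events, 35 of them alternative and 4 called. SNX14 belongs to a group of nexins anchored in the endoplasmic reticulum. The 27-nt microexon of SNX14 (ENSG00000135317.8) was at 0.247, 0.182, 0.371 and 0.217, with overlapping sets.

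SNX24, one of the small nexins made of little more than a PX domain, had a 99-nt coding exon (ENSG00000064652.6) that was mostly skipped in this event. Inclusion was 0.079 (0.036 to 0.165) and 0.126 (0.0573 to 0.255) across the first set, from 6 inclusion reads in each library, and 0 (0 to 0.0498) and 0 (0 to 0.0762) in the second. With 44 and 28 reads in the second set, 0 inclusion reads allow up to 6.82% and 10.7% of the reads. In the authors' deposited table the difference was 0.103 (FDR 0.0034). Without library 2 of the first set the difference was 0.079, and without the correction for form length it was 0.159.

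SNX22, also a small nexin, had an 84-nt coding exon (ENSG00000157734.9) at 0.0343 (0.006 to 0.173) and 0.242 (0.128 to 0.411) across the first set, and 0.024 (0.00421 to 0.125) and 0 (0 to 0.0674) across the second. The sets did not overlap, but library 1 of the first set was close to library 1 of the second, with 1 inclusion read in each. Inclusion reads were 1 of 19 and 9 of 27 in the first set, and 1 of 27 and 0 of 34 in the second. SNX22 has a difference of 0.126, at FDR 0.00716, by the authors' deposited table, and without library 2 of the first set the difference was 0.0223.

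SNX16, an endosomal nexin, had an 87-nt coding exon on chromosome 8 (ENSG00000104497.9, 82741665 to 82741751) at 1, 1 and 1, and at 0.587 (0.387 to 0.762) in library 2 of the second set. It had 22, 15, 26 and 26 reads, the fewest of the called events. The SNX16 difference was 0.207 at FDR 0.0152 by the authors' deposited table, and without that library the difference was 0.

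**Figure D2:**
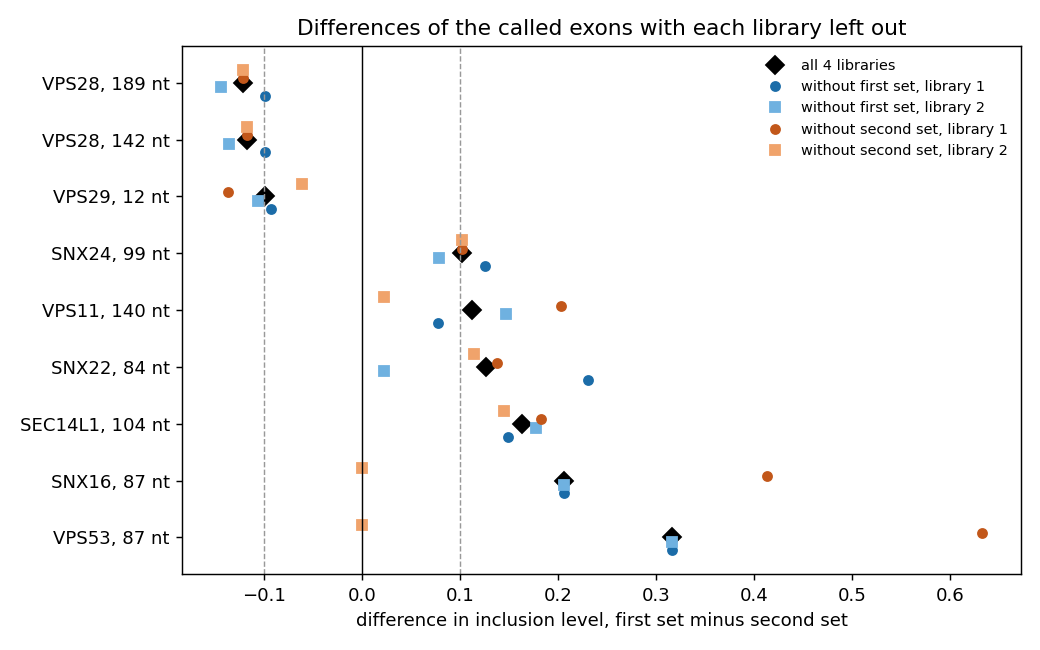
Difference in inclusion level, first set minus second set (horizontal axis), of 9 called exons with all 4 libraries (diamonds) and with each library left out in turn. SEC14L1 alone of these stays beyond the dashed lines at 0.1 in every case, and VPS53 and SNX16 reach 0 without library 2 of the second set.

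The deeper alternative exons of the sorting nexins were not called, and those of SNX5 and SNX6 overlapped between the sets. SNX5 and SNX6 are membrane-bending nexins of endosomal tubules. A 187-nt exon of SNX5 was at 0.17, 0.218, 0.21 and 0.223, and a 111-nt exon of SNX6 at 0.96, 0.931, 0.959 and 0.922. SNX7 had 2 exons of differing level. Its 153-nt coding exon was at 0.819, 0.822, 0.841 and 0.851, and the authors' deposited table gives FDR 1. Its 120-nt exon, found in a transcript marked for nonsense-mediated decay, was at 0.0402 and 0.0444 across the first set, and 0.0781 and 0.125 across the second, with a difference of -0.06 (FDR 0.00571 in the authors' deposited table).

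SEC14L1 belongs to the SEC14-like lipid-binding proteins, whose name falls under the gene rule although they are not coat subunits. Its 104-nt exon (ENSG00000129657.10, chr17:75089326-75089429) had no match in the annotation used. Inclusion was 0.957 (0.858 to 0.988) and 0.929 (0.833 to 0.972) across the first set, and 0.798 (0.68 to 0.881) and 0.761 (0.621 to 0.861) across the second, from 78, 93, 85 and 64 reads. The sets did not overlap, and in the authors' deposited table the difference was 0.163 (FDR 0.0106). It was the 1 called event of the 10 whose difference stayed at 0.1 or more without each library in turn, from 0.145 to 0.182. Without the correction for form length it was 0.109. A second event on the same exon, with a more distant neighbour, was at 1, 0.981, 1 and 1. The 2 events on the exon thus had different levels in the second set.

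The AP adaptors had 148 events, 27 of them alternative and 0 called, and 2 with an FDR under 0.05 in the authors' deposited table. AP2M1 encodes the mu subunit of AP-2, which binds sorting signals of receptors taken up with clathrin. Its 6-nt microexon (ENSG00000161203.9), with 1998 to 2600 reads in a library, was at 0.688 (0.669 to 0.707), 0.689 (0.669 to 0.708) and 0.688 (0.667 to 0.708) in 3 libraries and at 0.637 (0.618 to 0.655) in library 2 of the second set. The interval of that library does not touch the other 3. For AP2M1 the authors' deposited table has a difference of 0.026 (FDR 1), and without that library the difference was 0.000935.

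AP1B1 encodes the beta subunit of AP-1, the adaptor of the trans-Golgi network. Its 9-nt microexon (ENSG00000100280.12) was at 0.283 (0.257 to 0.31) and 0.291 (0.264 to 0.32) across the first set, and 0.309 (0.283 to 0.337) and 0.306 (0.282 to 0.332) across the second, with intervals that overlap. A 42-nt exon of AP2B1, the beta subunit of AP-2, was at 0.254, 0.333, 0.342 and 0.256. In AP2B1 each set spanned more than the difference between the sets.

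AP1G1 encodes the gamma subunit of AP-1. Its 9-nt microexon (ENSG00000166747.8) was at 0.354 (0.291 to 0.422) and 0.311 (0.241 to 0.391) across the first set, and 0.239 (0.139 to 0.38) and 0.0411 (0.00728 to 0.2) across the second, from 196, 139, 44 and 23 reads. For AP1G1 the authors' deposited table has a difference of 0.193 (FDR 0.0892), so it was not called, and without library 2 of the second set the difference was 0.0933. It was picked out, as was the set of microexons, after the values had been seen. Of the 6 alternative microexons, 5 had a length that is a multiple of 3, and VPS29 was the 1 called. The 11-nt microexon of SNX21 was the exception in length, at 0.257, 0.15, 0.222 and 0.0585.

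**Figure D3:**
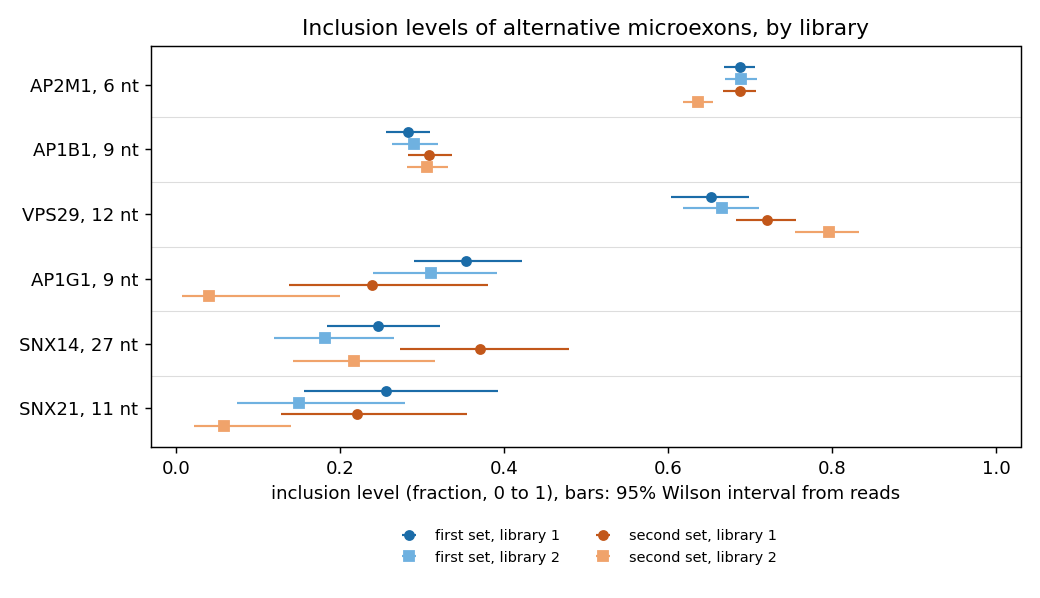
Inclusion level (fraction, horizontal axis) of the 6 alternative microexons in each library, with 95% Wilson intervals from the reads. AP2M1 and AP1B1 have the narrowest intervals, and library 2 of the second set is the lowest in AP2M1, AP1G1 and SNX21 and the highest in VPS29.

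The COPI coat had 49 events, 7 alternative and 0 called. COPB2 encodes the beta-prime subunit, which binds retrieval signals. Its 197-nt non-coding exon (ENSG00000184432.5, chr3:139103846-139104042) was at 0.0817 and 0.0812 across the first set, and 0.14 and 0.147 across the second, from 622, 606, 276 and 343 reads. The sets did not overlap, the libraries of each set lay within 0.01 of each other, and in the authors' deposited table the difference was -0.062 (FDR 0.00359). Without the correction for form length this difference was -0.101, which is past the 0.1 of a call. The same exon with another neighbour was at 0.397, 0.5, 0.548 and 0.756, with a difference of -0.204 (FDR 0.129 in that table). Both events had higher inclusion in both libraries of the second set. They are on the same exon and can share junction reads, so they are not counted as independent observations. COPE, the epsilon subunit, carried the deepest alternative exon of all these genes: its 153 nt were at 0.94, 0.945, 0.943 and 0.934 from 3370 to 4568 reads. The 153-nt exon of COPZ1, a zeta subunit, was at 0.938, 0.898, 0.904 and 0.925.

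The COPII coat and its helpers had 116 events, 28 alternative and 0 called, with an FDR under 0.05 for 4 in the authors' deposited table. SEC31A encodes the outer cage subunit. Its 297-nt coding exon (chr4:83763338-83763634) was at 0.915 and 0.883 across the first set, and 0.825 and 0.82 across the second, with a difference of 0.077 (FDR 0.0238 in the authors' deposited table). A 342-nt form that shares an end with it was at 0.939 and 0.917 against 0.873 and 0.888, with a difference of 0.047 (FDR 0.0602). Both forms were lower in both libraries of the second set. They share an end and can share junction reads, so they are not counted as independent observations. The cargo-binding subunit SEC24B had a 93-nt coding exon at 0.0702 and 0.101 across the first set, and 0 and 0 across the second, from 24 and 31 reads there, with an FDR of 0.00259. Its paralog SEC24C had an 87-nt non-coding exon at 0.104, 0.16, 0.0806 and 0, with an FDR of 0.000345; the authors' deposited table gives these 2 differences as 0.086 and 0.091. A 192-nt coding exon of SEC24C, with 215 to 480 reads, was at 0.912, 0.905, 0.943 and 0.92. SEC16A, which marks the exit sites, had a 75-nt exon at 0.877, 0.904, 0.886 and 0.866.

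**Figure D4:**
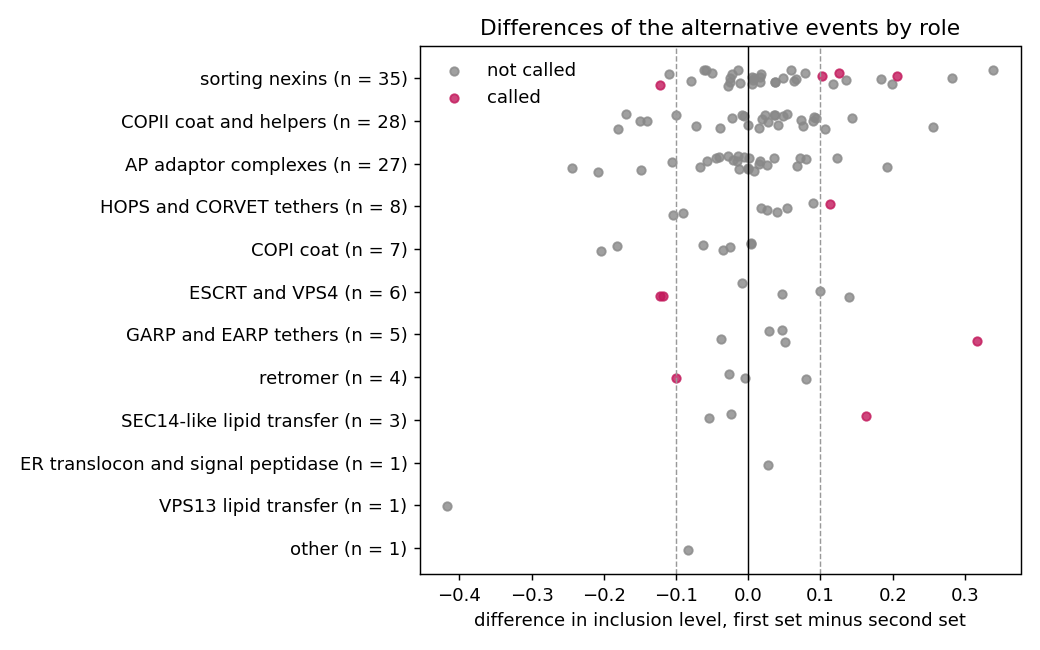
Difference in inclusion level, first set minus second set (horizontal axis), of the 126 alternative events by role, with called events in red and dashed lines at 0.1. The called events lie in the sorting nexins, ESCRT, tethers, retromer and SEC14-like genes, and many events past the lines were not called.

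Outside the coats, the 29 events of the endoplasmic reticulum translocon and signal peptidase held 1 alternative exon, in SEC11A, the catalytic subunit of signal peptidase. Its 136 nt were at 0.122, 0.117, 0.105 and 0.08, and the authors' deposited table gives FDR 0.192. SEC14L2, a SEC14-like protein, had a 329-nt exon at 0.941, 0.781, 0.881 and 0.889. The antisense transcript VPS9D1-AS1, whose name also meets the rule, had a 434-nt exon at 0.859, 0.915, 0.941 and 1; whether the counting used strand is not stated. VPS13D, a lipid transfer protein, had the widest difference of all alternative members, -0.416, with an FDR of 0.142 in that table. Its 75-nt exon was at 0.388, 0.25 and 0.47 and at 1 in library 2 of the second set, where it had 14 reads, and without that library the difference was -0.151. Of the alternative members that differed by at least 0.15 without a call, 14 in all, 9 had a mean under 50 reads. This size was chosen after the data had been seen, and the like count over all tested events was not taken.

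Called members were shallower than the rest, with a median of 64.1 reads against 247.5 for members not called, and 5 of the 10 had a mean under 50 reads. Junction reads were summed over the events of a gene and taken as a share of the sum over all events of the library. A read counted for several events enters both sums more than once. This share was higher in the first set for 85 of the 106 genes (80.2%), with a median log2 ratio of 0.43. It was higher for 74.7% of all tested genes, with a median of 0.35. The part of depth in the calls was not tested. Of the markers listed for HEK293T cells, VIM, GATA3 and PAX2 had junction reads in every library, while LHX1 and NEFM had no event in the table. The 5 markers of other cell types had no event either. A gene can be expressed without having a skipped exon event, so a missing event does not show missing expression.

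Partner genes of the same pathways were taken from lists of clathrin partners, other ESCRT proteins, the retriever, CCC and WASH complexes, COPI and COPII partners, and other tethers. Of 811 events in 126 of these genes, 16 were called (1.97%, beside 2.71% of all tested events), 9 higher and 7 lower in the first set. DSCR3, a retriever subunit related to VPS26, had 2 of them. Its 144-nt exon was at 0.909 and 0.853 across the first set, and 0.971 and 1 across the second, and its 81-nt exon at 0.85 and 0.789 against 0.938 and 1, and the authors' deposited table gives -0.105 (FDR 0.00229) and -0.149 (FDR 0.00779). TRAPPC2L, a TRAPP tether subunit, had a 99-nt exon at 0.196 and 0.153 against 0.0513 and 0.00574, with an FDR of 1.57e-06 in that table. STAM, an ESCRT-0 subunit, had a 147-nt exon at 1 in 3 libraries and at 0.59 in library 2 of the second set. These 3 genes were picked out after their values had been seen.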

How the data were processed

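The authors' deposited table has the layout of rMATS for skipped exons counted on junction reads, per the file headers; cutadapt, STAR and hg19 are named in the submitters' processing notes, and the rMATS version, annotation and settings are not given in the sources used here. It gives counts of inclusion and skipping reads for 2 libraries in each of 2 sets, and the inclusion level as a fraction. The deposited difference is a score from -1 to 1, and the deposited p-value and FDR are the authors' rMATS values. Levels recomputed from the reads were within 0.0005 of those deposited. Summed over all events, the junction reads of the libraries came to 38613055, 39012939, 42868431 and 43929373. A read counted for several events enters these sums more than once.

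Events with a mean of at least 20 reads were used. A call needed an FDR under 0.05 and an absolute difference of at least 0.1. Intervals are 95% Wilson intervals on the reads, converted with the form lengths. The quasi-binomial model (limma 3.58.1 squeezeVar, R 4.3.3, dispersion never under 1) and limma on log2 ratios used Benjamini-Hochberg adjustment over 54503 events and were tested on simulated data. The quasi-binomial model was run in 2 versions. The first, as designed, took its prior from all events. The second took it from events of intermediate inclusion with a trend on depth; it was added because the first found few of the known changes in that test, but only after the first version's counts on these data had been seen, so it is given as an alternative.

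GENCODE release 29 (GRCh38) served for names, exon class and sequences: 639 of the 675 events (94.7%) found a match by splice-site spacing, and no coordinate was converted. Named events are the called ones, those called by the quasi-binomial model (0), and the 3 deepest alternative exons of each role; others are said to be picked later. Members, roles and lists were chosen with earlier results of these data known. The values of 1 called exon are not reported here.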

Additional observations from a re-analysis of the deposited data

How the results depend on the processing

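The 10 calls from the authors' deposited table came to 5 with a mean of at least 50 reads, 24 with a difference of at least 0.05, 2 with at least 0.2 and 6 with an FDR under 0.01. With each library left out in turn, 6 to 10 of the 10 stayed at 0.1 or more without a change of direction; it was 6 without library 1 of the first set and 6 without library 2 of the second. The other 5 alternatives (no read minimum, a mean of at least 10 reads, adjustment over tested events, 1 event per exon, sets that do not overlap) gave counts within 1.5 times of 10. The quasi-binomial count was 0 as designed, with a mean of at least 50 reads, with the second dispersion prior (added after seeing the data) and in both limma fits; the smallest adjusted p of a member ranged from 0.456 to 0.955 over the fits to all 4 libraries. With a library left out the count was 0 too, but there the other set alone gives the spread, and these fits say nothing of stability. None of the 10 called differences changed sign under the alternatives run, although VPS53 and SNX16 reached 0. Of the 33 named differences, 8 moved by more than the spread between libraries without the form length correction and 0 with summed reads. No paired analysis was possible because the table's columns carry no replicate numbers.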
